A study of Mus musculus with 6 samples.

Results

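The genes described here encode 9 subunits of Polycomb repressive complex 1 (PRC1), namely Ring1, Rnf2, Bmi1, Pcgf5, Cbx2, Cbx7, Cbx8, Phc1 and Phc2. They were found by symbol in the deposited table of read counts. All 9 were among its 24062 symbols, and all 9 were among the 15742 genes with enough counts to be tested, 773 to 10570 counts per library. The cells were Kit-positive bone marrow cells of C57BL/6 mice, also called lineage-negative in the series design. WT libraries came from 3 mice labelled Ints11_WT, and KO libraries from 3 littermates labelled Ints11_KO with the Mx1Cre transgene and floxed Ints11 alleles, 1 mouse per library. Sorting took place 4 days after an injection of poly(I:C), and the labels give this for both genotypes. Mx1 is an interferon-inducible promoter that is active in many cell types, so Cre is not limited to blood cells. No source used here gives the age of the mice, or says whether WT mice carried Mx1Cre or floxed alleles. Ints11 encodes the RNA endonuclease of the Integrator complex, which cleaves nascent transcripts.

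PRC1 places a single ubiquitin on histone H2A through a RING1 or RNF2 ligase, each of which pairs with 1 of the PCGF proteins. Canonical PRC1 adds a chromobox (CBX) protein, which reads the histone H3 methyl mark laid down by PRC2, and a Polyhomeotic (PHC) protein, which joins complexes into larger assemblies. Variant PRC1 carries RYBP or YAF2 in place of CBX and PHC. In blood, BMI1 is known for keeping stem cells self-renewing, largely by repressing Cdkn2a, and CBX7 and CBX8 are known for opposite roles in stem cell self-renewal and differentiation.

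Library totals lay between 124074531 and 166860739 counts. Ints11, listed as Cpsf3l, held 73.8, 92.3 and 78.9 CPM in WT and 64.3, 58.3 and 60.2 CPM in KO libraries (log2 change -0.42, adjusted p = 0.0174). CPM are counts scaled to the library total after TMM normalization, and values with ± are means with the SD of 3 libraries or log2 changes with their SE. Adjusted p-values come from the quasi-likelihood test of edgeR, with Benjamini-Hochberg adjustment over all tested genes. This call was lost without library KO_340 (log2 change -0.36, adjusted p = 0.0557) or KO_345 (-0.38, 0.0541), and with the neutrophil covariate described under the members (-0.23, 0.181). Reads over exons outside the floxed part would still count for the gene, and their part in these values was not tested. Kit stood at 199 to 221 CPM in WT and 220 to 238 CPM in KO libraries. T and NK cell markers summed to 284 to 324 CPM in WT and 243 to 265 CPM in KO libraries, most of it from Nkg7, while Cd3e stood at no more than 0.592 CPM. Genes of mature neutrophils were abundant despite the lineage-negative label: 17 listed markers summed to 12699 to 39709 CPM in WT and 47574 to 62358 CPM in KO libraries, with 0 of them at 0. Listed genes of granulocyte-macrophage progenitors, for granule proteins, transcription factors and others, summed to 18612 to 25588 CPM in WT and 9670 to 11716 CPM in KO libraries. Stem cell markers summed to 338 to 371 CPM in WT and 421 to 600 CPM in KO libraries.

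Of the 9 members, 1 fell in KO libraries, Pcgf5, and 0 rose at an adjusted p of 0.05. Of all tested genes 19.9% were called lower and 16% higher, so 1 and 0 of 9 are no more than these shares. At an unadjusted p under 0.05, Cbx2 and Cbx7 were higher, and DESeq2 called both of them higher. All KO libraries lay above all WT libraries for Cbx2 and Cbx7 (25.6% of all tested genes) and below them for Pcgf5 (28.4%). The remaining 6 overlapped between genotypes. The median log2 change of the members was 0.06, beside 0.01 for all tested genes. The members were measured with SEs of 0.07 to 0.17 on the log2 scale, against a median SE of 0.15 for all tested genes.

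**Figure D1:**
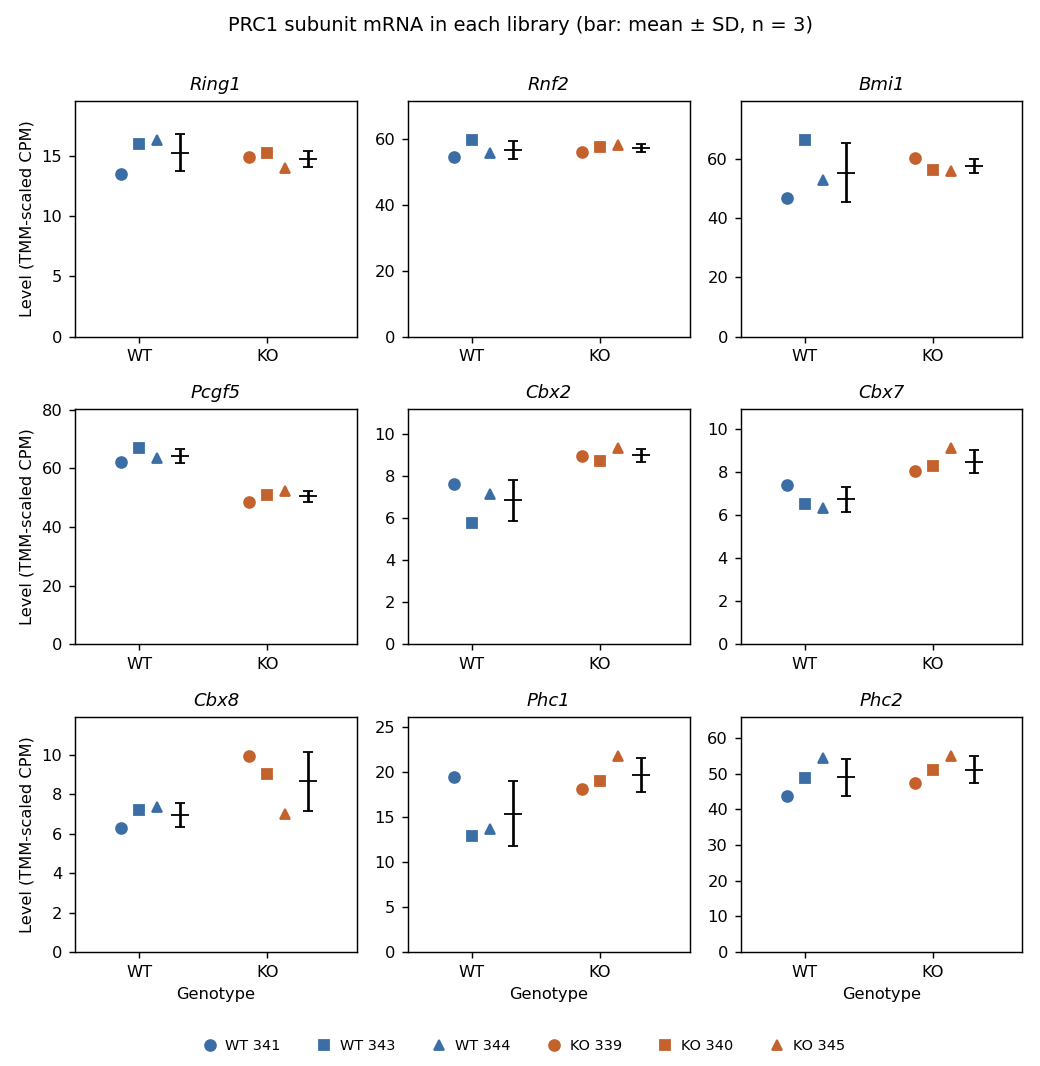
TMM-scaled CPM (y axis, from 0) of the 9 PRC1 genes in the 3 WT and 3 KO libraries (x axis); each point is 1 mouse, and the black bar gives mean ± SD. Pcgf5 lies at 48.5 to 52.2 CPM in KO libraries, below the WT libraries at 62.3 to 66.9 CPM, while the libraries of Rnf2, Ring1, Bmi1 and Phc2 are intermixed.

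The ubiquitin ligase genes Ring1 and Rnf2 showed no difference that passed the test. Rnf2, which encodes RING1B, the ligase that carries most of the activity in many cells, held 54.7, 59.7 and 55.8 CPM in WT and 56.2, 57.6 and 58.4 CPM in KO libraries. The WT and KO values were intermixed, and the log2 change of 0.02 ± 0.07 (SE) had a 95% interval from 0.902-fold to 1.13-fold (adjusted p = 0.874). Ring1, which encodes the paralog RING1A, held 13.5, 15.97 and 16.3 CPM in WT and 14.9, 15.3 and 14 CPM in KO libraries. Its library WT_341 was the lowest of the 6, and its log2 change was -0.05 ± 0.11 (interval 0.809-fold to 1.15-fold, adjusted p = 0.728). Per kilobase of annotated exon, Rnf2 made up 74.5 ± 1.6% of the summed level of both ligase genes in WT and 75.4 ± 1.08% in KO libraries (SD, 3 libraries each). An exact permutation test of this share gave a two-sided p of 0.40 (0.545 after adjustment over 15 shares). Rnf2 (chromosome 1, 151458004 to 151500955, reverse strand, GRCm38) shares 158 bp of its exons, 3.83%, with Trmt1l on the opposite strand, and Ring1 (chromosome 17, 34020792 to 34024680, reverse strand) shares none with another gene.

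The PCGF proteins decide which form of PRC1 a ligase joins: BMI1 (PCGF4) and PCGF2 build canonical complexes, and PCGF5, with its close relative PCGF3, builds a variant with high ubiquitin ligase activity. Pcgf5 held 62.3, 66.9 and 63.4 CPM in WT and 48.5, 50.7 and 52.2 CPM in KO libraries. Every KO library lay below every WT library, and Pcgf5 fell by 0.35 ± 0.07 on the log2 scale, which is 0.786-fold (95% interval of the log2 change -0.51 to -0.18, adjusted p = 0.0117). In sorted bulk cells, fewer cells that express a gene and less of its RNA per cell cannot be told apart. The call was lost without library KO_339 (log2 change -0.29, adjusted p = 0.0598) and with a covariate for the level of mature neutrophil genes (-0.27, adjusted p = 0.0750). The neutrophil and progenitor marker sums above did not overlap between genotypes, and their part in the fall was not tested beyond that covariate. The covariate thus follows genotype in part, and 6 libraries cannot separate them well. Over all tested genes, 5659 were called without it and 1692 with it, so losing a call with it is not particular to a gene.

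Bmi1 held 46.9, 66.2 and 52.6 CPM in WT and 60.2, 56.3 and 55.8 CPM in KO libraries. The WT libraries spread more widely than the KO libraries and enclosed them, with WT_341 the lowest and WT_343 the highest. The log2 change was 0.06 ± 0.13 (interval 0.845-fold to 1.28-fold, adjusted p = 0.751), and without library WT_341 it was -0.06. With the neutrophil covariate it lay 0.35 above the median of all tested genes and did not pass. Bmi1 (chromosome 2, 18677018 to 18686629, forward strand) starts 787 bp after the end of Commd3 on the same strand. Commd3 stood at 42.97 ± 3.52 CPM in WT and 36.8 ± 1.13 CPM in KO libraries (adjusted p = 0.0824).

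Sequences before annotated start sites are shown for Pcgf5, the member that passed the test, and for its most abundant paralog Bmi1, which did not. They come from RefSeq on GRCm38.p6, 250 bases per start, in the direction of transcription. RefSeq gives Pcgf5 3 starts, and the counts per gene do not separate them. Starts 1 and 3 are printed, since both are rich in CpG. Capitals mark matches on either strand to 5 short motifs: the E-box CACGTG, the E2F core GCGGGAA, the NF-Y box CCAAT, the GC box GGGCGG and the cyclic AMP response element TGACGTCA. Overlapping matches are all counted.

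Pcgf5 start 1, chr19:36348079-36348328, forward strand: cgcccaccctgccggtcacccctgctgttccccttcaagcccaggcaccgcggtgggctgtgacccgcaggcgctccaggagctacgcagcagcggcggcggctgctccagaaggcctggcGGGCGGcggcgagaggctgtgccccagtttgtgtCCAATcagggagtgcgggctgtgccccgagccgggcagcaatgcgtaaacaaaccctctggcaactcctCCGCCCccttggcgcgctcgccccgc
Pcgf5 start 3, chr19:36409498-36409747, forward strand: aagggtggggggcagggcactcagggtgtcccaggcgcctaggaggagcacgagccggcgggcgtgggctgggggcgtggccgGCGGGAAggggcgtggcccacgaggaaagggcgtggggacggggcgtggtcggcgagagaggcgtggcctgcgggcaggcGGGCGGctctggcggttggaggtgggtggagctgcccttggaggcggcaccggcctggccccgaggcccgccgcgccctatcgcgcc
Bmi1, chr2:18676768-18677017, forward strand: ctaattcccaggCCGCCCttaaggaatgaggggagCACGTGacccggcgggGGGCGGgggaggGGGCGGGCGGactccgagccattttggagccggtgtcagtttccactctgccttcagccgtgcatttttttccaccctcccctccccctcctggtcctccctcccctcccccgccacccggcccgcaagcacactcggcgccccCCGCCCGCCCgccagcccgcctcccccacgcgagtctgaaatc

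Start 1 of Pcgf5 has a CCAAT box 95 bases before it and 2 GC boxes, the nearer at 26 bases, while start 3 has an E2F core and 1 GC box. The Bmi1 window has an E-box 215 bases before the start and 6 GC box matches. Over all 32851 RefSeq windows of this length, 33.8% hold a CCAAT box, 32.7% a GC box, 6.02% an E-box, 3.82% the E2F core and 1.55% the cyclic AMP element. No E-box lies in either printed Pcgf5 window. The first start has 23 CpG in the 250 bases for Pcgf5 and 21 for Bmi1. Windows were found for 8 of the 9 members, all but Cbx2, and at the first start 6 of the 8 held at least 20 CpG, as 17.9% of all windows do. Phc1, with 8, and Phc2, with 13, were below that at the first start, while start 3 of Phc2 held 34. A match describes letters only and shows no binding.

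Within the PCGF family, 5 of the 6 shares in the summed level per kilobase did not overlap between genotypes, and none passed after adjustment. The shares are parts of 1 sum per library, so a lower share of 1 gene raises the others, and they are not separate results. Among the levels of all tested genes, 25.6% were higher and 28.4% lower in KO libraries without overlap. Bmi1 made up 42.2, 48.6 and 46.4% in WT and 53.5, 51.5 and 51.9% in KO libraries, with no overlap. Pcgf5 made up 16.9 ± 1.24% in WT and 14.5 ± 0.862% in KO libraries, and Pcgf6 9.54 ± 0.807% and 6.496 ± 0.427% (SD, n = 3 each). Pcgf3 made up 11.2 and 12.1%, and Pcgf2, the BMI1 paralog MEL18, 0.811 and 1.35%. The level of Bmi1 itself did not pass the test (log2 change 0.06). Each of these 5 differences had p = 0.10 in the exact two-sided permutation test, the smallest that 20 assignments allow, and 0.214 after Benjamini-Hochberg adjustment over 15 shares. Summed CPM of the 6 PCGF genes were 175 ± 16.2 in WT and 156 ± 1.03 in KO libraries (exact permutation p = 0.10, adjusted p = 0.20 over 4 families).

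**Figure D2:**
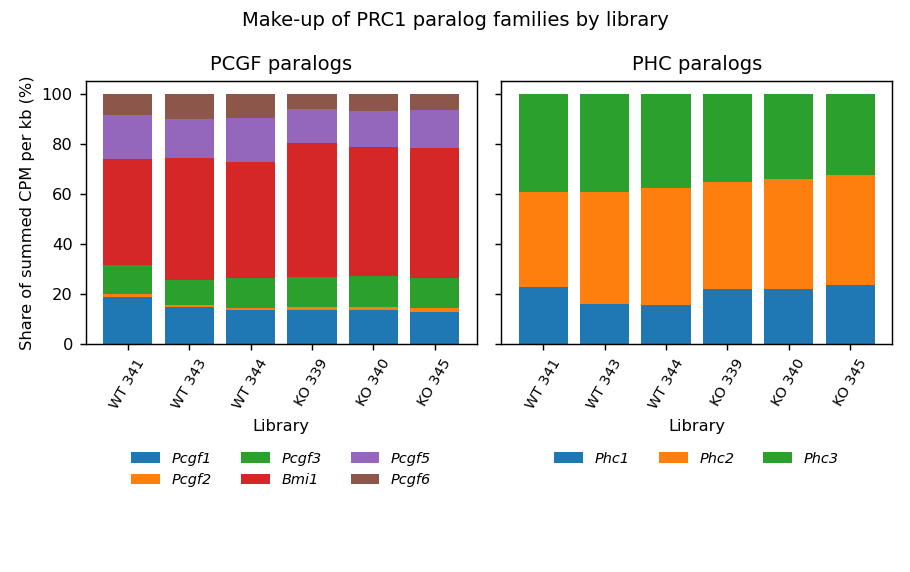
Stacked bars show, for each library (x axis), the percentage of the summed CPM per kilobase of exon (y axis) that each paralog of the PCGF and PHC families contributed. Bmi1 takes 51.5 to 53.5% of the PCGF sum in KO libraries against 42.2 to 48.6% in WT libraries.

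The chromobox genes Cbx2, Cbx7 and Cbx8 had the lowest levels per kilobase of the members, and all had positive log2 changes, none past the threshold. Cbx2 held 7.6, 5.76 and 7.13 CPM in WT and 8.93, 8.71 and 9.32 CPM in KO libraries. The groups did not overlap, and the 1.32-fold difference (log2 0.40 ± 0.14, interval 1.05-fold to 1.65-fold) had an adjusted p of 0.0614. Cbx7, the chromobox subunit linked to stem cell self-renewal, held 7.39, 6.51 and 6.32 CPM in WT and 8.07, 8.29 and 9.12 CPM in KO libraries. All KO libraries were again the higher ones (1.26-fold, log2 0.33 ± 0.13, interval 1.03-fold to 1.55-fold, adjusted p = 0.0745). Cbx8 held 6.27, 7.23 and 7.37 CPM in WT and 9.95, 9.01 and 7.02 CPM in KO libraries. Its library KO_345 lay among the WT libraries (log2 0.32 ± 0.16, interval 0.958-fold to 1.62-fold, adjusted p = 0.159).

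Without library WT_341, Cbx2 (log2 change 0.47, adjusted p = 0.0261) and Cbx7 (0.39, adjusted p = 0.0351) passed. With the neutrophil marker level as a covariate the log2 change of Cbx2 was 0.16 (adjusted p = 0.549) and that of Cbx7 0.24 (adjusted p = 0.382). Of 18 listed stem cell markers 12 were called higher and 0 lower in KO libraries, beside 16% and 19.9% of all tested genes. Their median log2 change was 0.99. Ly6a and Hoxa9 had negative log2 changes, and Ly6a stood at 87.9 CPM in WT and 55.5 CPM in KO libraries, without overlap (adjusted p = 0.0607). The part of the stem cell markers in these chromobox values was not tested. Cbx7 (chromosome 15, 79915807 to 79971119, reverse strand) shares 100 bp of its exons, 1.54%, with Apobec3 on the opposite strand. Apobec3 fell from 134 to 94.9 CPM, and the part of reads in this overlap in the Cbx7 values was not tested.

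Cbx2 (119022962 to 119031270, forward strand) and Cbx8 (119036305 to 119040969, reverse strand) lie 5035 bp apart on chromosome 11. Cbx6 lies 81119 bp from Cbx7 on chromosome 15. Cbx6, a further chromobox subunit, rose from 22.7 ± 2.14 to 37.7 ± 2.63 CPM (1.67-fold, adjusted p = 0.00443), a larger change than that of any of the 9 members.

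PHC proteins polymerize through their SAM domain. Neither member passed the test. Phc1 held 19.5, 12.9 and 13.7 CPM in WT and 18.1, 19.1 and 21.8 CPM in KO libraries. Library WT_341 lay among the KO libraries, apart from the other WT mice. Over all libraries the log2 change was 0.36 ± 0.17 (interval 0.971-fold to 1.69-fold, adjusted p = 0.138), and without that mouse it was 0.55 and passed (adjusted p = 0.00568). With the neutrophil marker level as a covariate it was 0.04 (adjusted p = 0.902). Several marker sums also set library WT_341 apart from the other WT mice, and their part was not tested. It was higher for B cell and lymphoid (205 CPM, against 36.5 and 73.5), mature neutrophil (39709, against 12699 and 23302) and erythroid markers (858, against 555 and 484). For macrophage markers it was lower (328 CPM, against 512 and 565). Phc2 held 43.8, 48.7 and 54.3 CPM in WT and 47.4, 50.9 and 54.997 CPM in KO libraries. Its libraries were intermixed (log2 change 0.06 ± 0.10, interval 0.883-fold to 1.23-fold, adjusted p = 0.663). Of the summed PHC level per kilobase, Phc3, the remaining Polyhomeotic gene, made up 38.7 ± 0.795% in WT and 34.1 ± 1.44% in KO libraries (exact permutation p = 0.10, adjusted p = 0.214). Phc1 lies on chromosome 6 (122317731 to 122340561, reverse strand), Phc2 on chromosome 4 (128654702 to 128752881, forward strand) and Pcgf5 on chromosome 19 (36348309 to 36460970, forward strand). Pcgf5 shares 60 bp of its exons, 0.475%, with the antisense gene F530104D19Rik, and since no source used here states the strand setting of the counting, reads in such overlaps cannot be assigned to either gene.

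Levels of different genes are compared here as CPM per kilobase of the union of annotated exons in GENCODE M21. In WT libraries the order of levels was Bmi1 (13.9 ± 2.49), Rnf2 (13.8 ± 0.639), Phc2 (6.93 ± 0.742), Pcgf5 (5.08 ± 0.19), Ring1 (4.704 ± 0.472), Phc1 (2.902 ± 0.68), Cbx8 (1.89 ± 0.163), Cbx2 (1.605 ± 0.224) and Cbx7 (1.04 ± 0.0881). Bmi1 and Rnf2, Pcgf5 and Ring1, and Cbx8 and Cbx2 overlapped between their libraries, and every other pair of neighbours was separate. In KO libraries Ring1 (4.54 ± 0.204) stood above Pcgf5 (3.99 ± 0.148) with no overlap, and Pcgf5 overlapped with Phc1 (3.71 ± 0.362). Bmi1 and Rnf2, and Cbx8 and Cbx2, overlapped there too, and the remaining neighbours were separate. The exon union of Pcgf5 is 12629 bp, the longest of the 9, and its level per kilobase is understated where cells use shorter transcripts.

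The other 30 listed PRC1 subunits were all tested, and 3 rose and 7 fell (shares of all tested genes 16% and 19.9%). This balance depended on the scaling: with upper-quartile factors 7 were called higher and 4 lower, and with the neutrophil covariate 1 and 1. Among 7 further canonical subunits Cbx6 rose and 0 fell. Among 23 subunits of variant complexes 2 rose and 7 fell, with a median of -0.20. The risers were Auts2 (1.85 ± 0.373 to 3.69 ± 0.326 CPM) and Fbrsl1 (15.3 ± 2.69 to 21.4 ± 1.73 CPM), which encode related proteins that join the PCGF3 and PCGF5 complexes. In the same complexes Csnk2a1, the casein kinase catalytic subunit, fell from 147 ± 9.89 to 123 ± 1.32 CPM, while Pcgf3 stood at 32.2 ± 1.13 and 31.8 ± 0.641 CPM. Usp7, a deubiquitinase of the PCGF1 complex, fell from 395 ± 24.9 to 314 ± 11.2 CPM. The calls of Csnk2a1 (log2 change -0.29 to -0.23, adjusted p = 0.0641 to 0.0916, against -0.26 with all libraries) and Usp7 (-0.35 to -0.29, 0.0511 to 0.0618, against -0.33) were lost without library WT_344 or any 1 KO mouse. That of Fbrsl1 was lost without library WT_343 (log2 change 0.36) or any 1 KO mouse (0.48 to 0.59, against 0.49 with all libraries), with adjusted p from 0.0676 to 0.103. With the neutrophil covariate all 4 of these calls were lost (log2 change 0.71 for Auts2, 0.35 for Fbrsl1, -0.15 for Csnk2a1 and -0.24 for Usp7, adjusted p = 0.119 to 0.285), while Cbx6 kept its call under all 17 alternatives. Upper-quartile scaling also ended the calls of Usp7 (-0.20, adjusted p = 0.0553) and Csnk2a1 (-0.12, 0.146), and library totals that of Csnk2a1 (-0.16, 0.0871). Csnk2a1 was also lost with a filter at 1 CPM (-0.19, 0.0532) and a sex covariate (-0.24, 0.0530), and Fbrsl1 with sample quality weights in limma-voom (0.32, 0.0578).

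The remaining falls were all of genes of the PCGF6 complex, which E2F6 and MGA bring to DNA. This grouping within the list was made after the values were seen. Of the 7 genes in this grouping 5 fell and 0 rose, beside 19.9% of all tested genes called lower. Their median log2 change was -0.41, against 0.01 for all tested genes. The grouping leaves out Ring1, Rnf2, Rybp and Yaf2, whose proteins variant complexes share. None of these was called (log2 change -0.05, 0.02, 0.21 and 0.16). No test was made of the group, and its choice after the fact favours such a count. Pcgf6 fell from 14.6 ± 2.76 to 9.01 ± 0.446 CPM (log2 change -0.69, adjusted p = 0.0137), and L3mbtl2, which reads chromatin in this complex, from 67.8 ± 9.75 to 43.8 ± 0.989 CPM (-0.63, adjusted p = 0.00762). E2f6 fell from 27.3 ± 2.41 to 20.2 ± 0.245 CPM, Wdr5 from 162 ± 15.3 to 122 ± 1.35 CPM and Cbx3 from 90.1 ± 10.8 to 69.7 ± 0.969 CPM. Mga (log2 change -0.20, adjusted p = 0.0843) and Tfdp1 (0.02, adjusted p = 0.889) did not pass. Wdr5, Cbx3 and Tfdp1 also serve other complexes. Pcgf6 lost its call without library KO_339 (log2 change -0.62, adjusted p = 0.0581), and E2f6 without library KO_339 (-0.41, 0.0566) or KO_340 (-0.40, 0.0502). Cbx3 lost its call without library WT_344 or any 1 KO mouse (-0.41 to -0.33, adjusted p = 0.0515 to 0.0699, against -0.37 with all libraries), and under upper-quartile scaling (-0.23, 0.0564). With the neutrophil marker level as a covariate L3mbtl2 was the only 1 of the 5 still called (log2 change -0.35, adjusted p = 0.0481), and the others had log2 changes of -0.32 (Pcgf6), -0.27 (E2f6), -0.25 (Wdr5) and -0.16 (Cbx3).

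Genes that remove or read the PRC1 mark were counted from lists in the same way. Of 12 tested genes for removal of ubiquitin from H2A, 4 fell and 0 rose (median log2 change -0.12), beside 19.9% called lower and 16% called higher of all tested genes. Asxl2, a partner of the BAP1 deubiquitinase, fell from 166 ± 12.1 to 121 ± 1.47 CPM and the H2A deubiquitinase gene Usp16 from 56.2 ± 5.29 to 40.3 ± 1.35 CPM, and both kept their calls without any 1 library. Usp16 lost its call with the neutrophil covariate (log2 change -0.30, adjusted p = 0.0660). Hcfc1 and Foxk2, further BAP1 partners, fell by 0.33 and 0.42 on the log2 scale, and both calls were lost without library WT_344 or any 1 KO mouse (log2 change -0.31 to -0.27 for Hcfc1 and -0.42 to -0.36 for Foxk2, adjusted p = 0.0552 to 0.0991). Foxk2 (-0.19, 0.257) and Hcfc1 (-0.20, 0.182) also lost them with the neutrophil covariate, and Hcfc1 with upper-quartile scaling (-0.19, 0.0851) and library totals (-0.22, 0.0575). Bap1 itself stood at 102 ± 9.11 and 101 ± 0.334 CPM (adjusted p = 0.949). Of 4 genes for proteins that bind ubiquitinated H2A, Dnajc2 fell by 0.60 on the log2 scale, a call that was lost without any 1 KO mouse (-0.57 to -0.55, adjusted p = 0.0524 to 0.0665) and with the neutrophil covariate (-0.18, 0.238). Of the 4 core PRC2 genes, Suz12 fell by 0.47 on the log2 scale (adjusted p = 0.00515), and Ezh2 (-0.23), Ezh1 (-0.19) and Eed (-0.13) did not pass.

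Of 34 genes listed as Polycomb targets only 10 had enough counts to be tested, and 2 rose (Hoxa10 by a log2 change of 1.15 and Hoxa5 by 0.93) and 1 fell, which is near the 16% and 19.9% of all tested genes. With the neutrophil covariate Hoxa5 missed the threshold with a log2 change of 0.75 (adjusted p = 0.0853). Genes that were near 0 in both genotypes are not among the 10, so these counts do not describe the whole list. Cdkn2a, the textbook target of BMI1, had 2 counts in each WT library and 1, 0 and 6 counts in the KO libraries, too few for a fold change.

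The member values under other processing fall into 3 kinds. Pcgf5 kept a negative log2 change (-0.21 to -0.38) under all 17 alternatives, and passed under 15. Cbx2 kept a positive one (0.16 to 0.53) and passed under 7, Cbx7 (0.24 to 0.47) under 6, Phc1 (0.04 to 0.55) under 2 and Cbx8 (0.24 to 0.48) under 0. Bmi1 (-0.06 to 0.37), Ring1 (-0.14 to 0.10), Rnf2 (-0.02 to 0.15) and Phc2 (-0.07 to 0.20) changed sign under at least 1 alternative and passed under 0. Upper-quartile scaling moved the median of all genes by 0.14 on the log2 scale and library totals moved it by 0.10. Relative to the median of all tested genes, the log2 change was -0.36 for Pcgf5 and 0.38 for Cbx2 under TMM, upper-quartile and library-total scaling. Scaling shifts all genes nearly alike, so these equal values follow from the method and carry no support. Without a low-count filter they were -0.45 and 0.29, and with a filter at 1 CPM -0.27 and 0.47. With the neutrophil covariate they were -0.28 for Pcgf5 and 0.14 for Cbx2.

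**Figure D3:**
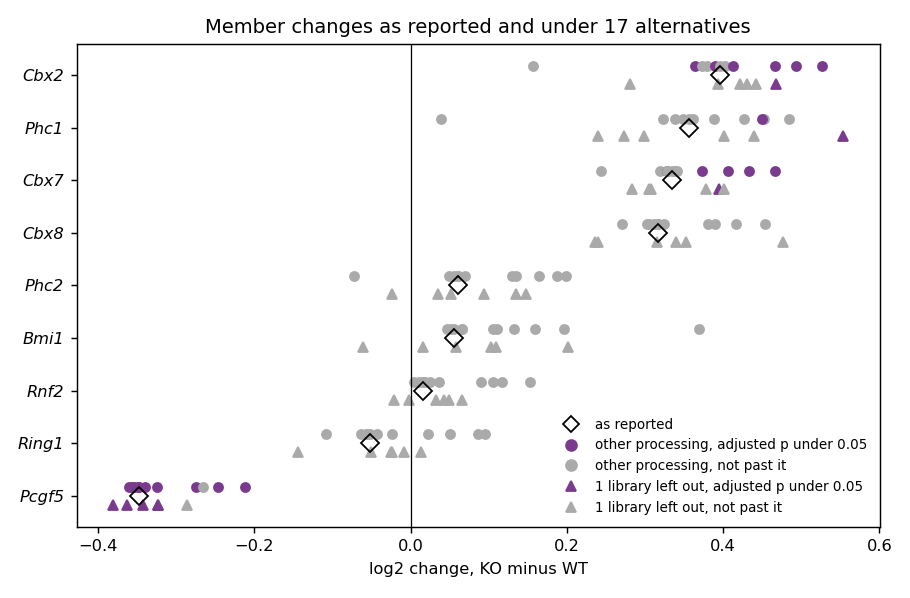
Each row (y axis) gives the log2 change (x axis) of 1 member as reported (diamond), under 11 other processing choices (circles) and with 1 of the 6 libraries left out (triangles), in purple where the adjusted p was under 0.05. Pcgf5 stays left of 0 and Cbx2, Cbx7, Cbx8 and Phc1 right of 0, while Phc2, Bmi1, Rnf2 and Ring1 lie on both sides.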

How the data were processed

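RNA of individual mice was extracted with TRIzol and sequenced as paired 75 bp reads from strand-specific mRNA libraries, per the labels' protocols. The table the authors deposited holds whole-number counts for each gene symbol in each library, with no normalization. The submitters' processing notes name FastQC, Trimmomatic, STAR, HTSeq and the build mm10. Annotation, strand setting and handling of multiply placed reads: not given in the sources used here.

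Groups came from the titles, and 0 columns belonged to other samples. Libraries differed from each other beyond counting noise (smallest chi-square per degree of freedom 58.7). Genes were tested in edgeR 4.0.16 (R 4.3.3) with filterByExpr (minimum count 10, minimum total 15), TMM, robust glmQLFit and glmQLFTest, Benjamini-Hochberg adjustment over 15742 genes and a threshold of 0.05; the test was tried on simulated counts. Intervals are 95% intervals of the fit, unadjusted. Alternatives used DESeq2 1.42.0, limma 3.58.1, other scalings and filters, covariates (neutrophil list level; sex, read from Xist) and each library left out. Shares and sums were compared by exact permutation. Of 232 listed genes 230 were found, 2 through synonyms. Members and lists were chosen with earlier results of these data known. Named genes are the members, up to 4 genes per Polycomb list with the smallest adjusted p, and the 2 genes most like each member; other subunits were named after their values were seen, and cell type lists are given as sums. Some items are not reported here.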

Additional observations from a re-analysis of the deposited data

How the results depend on the processing

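No paired analysis was possible because the mouse numbers differ between genotypes. Members called higher numbered 2 with upper-quartile factors, library totals only, at least 1 CPM in 3 libraries, or DESeq2, 1 with limma-voom and 3 with sample quality weights, and 0 to 3 with 1 library left out (3 without library WT_341). Members called lower numbered 0 with the mature neutrophil covariate and 0 to 1 with 1 library left out (0 without library KO_339). Their median log2 change was 0.20 with upper-quartile factors and -0.021 to 0.20 with 1 library left out. All genes called numbered 1692 with the neutrophil covariate and 2302 (without library KO_339) to 7879 (without library WT_341) with 1 library left out. The share of calls that were higher was 44.5% for TMM, 64.2% for upper-quartile factors and 58.8% for library totals. Other PRC1 subunits called higher numbered 7 with upper-quartile factors, 5 with library totals, at least 1 CPM in 3 libraries or quality weights, 1 with the neutrophil covariate and 2 to 5 with 1 library left out. Other subunits called lower numbered 4, 12 and 1 with upper-quartile factors, quality weights and the neutrophil covariate, and 2 to 11 with 1 library left out.

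The log2 change of Ring1 was 0.086 with upper-quartile factors, 0.050 with library totals, 0.022 with at least 1 CPM in 3 libraries and 0.096 with the neutrophil covariate, and that of Phc2 was -0.072 with quality weights. With 1 library left out the log2 changes were -0.14 to 0.014 for Ring1, -0.060 to 0.20 for Bmi1, -0.021 to 0.066 for Rnf2 and -0.023 to 0.15 for Phc2. The share difference of Phc2 was then -2.17 to 2.02 percentage points. The log2 ratio of the PHC sum was 0.072 with library totals, 0.11 with upper-quartile factors, 0.049 per kilobase and -0.059 to 0.033 with 1 library left out. That of the RING1 sum was -0.000905 per kilobase and -0.047 to 0.047 with 1 library left out. The causes were not tested. The 3 libraries per genotype limit permutation p-values to 0.10, and 5 members had 95% intervals within 1.5-fold in either direction.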

Other observations

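Listed markers of some other cell types moved with genotype in these sorted cells. The counts below stand beside 16% of all tested genes called higher and 19.9% called lower. Megakaryocyte genes summed to 177 to 207 CPM in WT and 303 to 420 CPM in KO libraries, and 8 of 12 rose. Mast cell and basophil genes summed to 346 to 436 CPM in WT and 684 to 814 CPM in KO libraries, and 8 of 9 rose. Of 12 listed genes of granulocyte-macrophage progenitors, for granule proteins, transcription factors and others, 9 fell and 1, Cebpe, rose. Of 12 monocyte and dendritic cell genes 4 fell and 1 rose, with sums of 1648 to 1860 CPM in WT and 1129 to 1204 CPM in KO libraries. Of 17 mature neutrophil genes 5 rose and 0 fell. Of 12 T and NK cell genes 5 rose and 1 fell, while their sum was lower in KO libraries (243 to 265 CPM) than in WT libraries (284 to 324 CPM). Nkg7, the most abundant of them, was the gene that fell. Of 12 stroma and endothelium genes 4 rose and 0 fell. Erythroid genes gave 1 fall of 14, macrophage genes 1 rise of 11, and B cell and lymphoid genes 0 calls of 12, each with sums that overlapped between genotypes. None of the markers in these lists was at 0 in all 6 libraries, and their part in the PRC1 values was not tested beyond the neutrophil covariate.

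Genes with a pattern like that of each member were sought among 9826 genes over the 6 libraries, by the root mean square distance of log2 CPM after centring each gene. Among the nearest were Copz1 (0.0197) for Pcgf5, Coq4 (0.0411) and Lztfl1 (0.0422) for Bmi1, Nf1 (0.0163) and Map3k7 (0.0174) for Rnf2, and Bcl2 (0.0224) for Ring1. For Cbx2 they were Pik3cb (0.0314) and Dtnb (0.0334), for Cbx7 Ercc5 (0.0227) and AI504432 (0.0418), and for Cbx8 the progenitor marker Cd34 (0.0771) and Fam83d (0.0812). For Phc1 they were Tal1 (0.0369), a transcription factor of blood stem and erythroid cells, and Kcna3 (0.0506), and for Phc2 Nfix (0.0223) and Tns3 (0.0310). The libraries of one genotype share their condition, so these distances describe likeness over both groups.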
